A study of Rattus norvegicus with 17 samples.

Results

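Among the genes that are abundant in rat kidney and lower after renal ablation, some were almost lost in one SNx library and close to the control level in another. The 150 genes described here were chosen by that unevenness. They were selected on values of these same libraries: a mean of at least 6 log2 CPM over the 5 NoOp libraries, a lower mean over the 12 SNx libraries, and then the largest standard deviation (SD) over SNx. CPM is a gene's count relative to the library total, scaled by TMM, and a prior count of 2 was added before the logarithm. Of 23487 genes in the count table, 15438 passed the filter on low counts, 3993 met the abundance minimum and 2670 of these had a lower SNx mean, so the members are 5.62% of the genes that could have been chosen. Because spread and direction were both used to choose them, the values below describe the members, and calls of the test run over all genes are printed for them without being read as support. Symbols were available for 104 members, and the remaining 46 are known here by Ensembl identifier alone.

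Bulk RNA of kidney tissue was sequenced from male Wistar Han rats. The study's methods say that a part of the recovered kidney was fixed for histology and the rest frozen for protein or RNA work. Which piece gave each library, and its share of cortex, is not stated. SNx (subtotal nephrectomy) rats lost part of the right kidney in a first operation and the entire left kidney in a later one, so the tissue is the remnant of the right kidney. Collection was planned for the time when serum creatinine or urinary protein passed a preset level, so the day differed between animals. The study's text says that most operated rats of one cohort did not reach that level. The operated rats it reports as reaching it are fewer than the 12 SNx libraries here. Unless some rats gave several libraries, some libraries came from rats below that level, and the labels do not tell which. Control libraries carry the label NoOp, while the study's methods name non-operated controls for one cohort and sham-operated controls for the other. Neither source gives an age, a day of collection or an RNA quality for a library, and the RNA integrity that the methods state for all samples together covers a wide range. Separate animals are not stated for the libraries, so the spread between them is between libraries as labelled. Total counts ran from 30454170 to 43876369 in NoOp and from 19210434 to 30784070 in SNx. Library numbers in the labels fall in a lower range, with all 5 NoOp and 6 SNx libraries, and a higher range with the other 6 SNx libraries. The labels do not say what these ranges stand for.

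The proximal tubule makes up most of the kidney cortex. Its cells reclaim glucose, amino acids, phosphate and filtered protein through a brush border, secrete drugs and organic acids from blood into urine, make glucose, and burn fatty acids rather than sugar. After injury, such cells can lose these functions and take on a less specialised state, and in chronic disease tubules can shrink or disappear. In bulk tissue, fewer cells of a type and less RNA per cell cannot be told apart.

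The loss was shared across the members, and it differed mainly by library. In each SNx library, every member was set against its own NoOp mean, and the median of these 150 differences was taken as the level the library kept. SNx 1 was lowest, at -5.09 log2, or 2.93% of the NoOp level. SNx 5 kept 5.32% and SNx 10 kept 9.91%, with 10.7% in SNx 6 and 16.5% in SNx 8. The middle of the order was close together: SNx 7 kept 31.1%, SNx 12 31.7%, SNx 3 35.0% and SNx 2 39.3%. Most was kept in SNx 9 (56.0%), SNx 4 (65.9%) and SNx 11 (68.8%), the last being -0.54 log2. The NoOp libraries had medians between -0.10 and 0.14 log2 around their own mean. Every SNx library therefore lay below every NoOp library on this median, which the choice of genes with a lower SNx mean favours.

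Neighbours in this order were not always separable. SNx 7 and SNx 12 differed by 0.02 log2 in their medians and 83 of 150 members were lower in SNx 7. SNx 4 and SNx 11 differed by 0.06, with 85 members lower in SNx 4, and SNx 10 and SNx 6 by 0.11, with 81 members lower in SNx 10. In contrast, 139 members were lower in SNx 1 than in SNx 5, and 143 were lower in SNx 8 than in SNx 7, which stood at the widest gap of the order, 0.92. Per gene, SNx 1 was the lowest SNx library for 136 members, SNx 5 for 9, SNx 8 and SNx 10 for 2 each and SNx 4 for 1. The highest library was SNx 11 for 80 members and SNx 4 for 56.

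**Figure D1:**
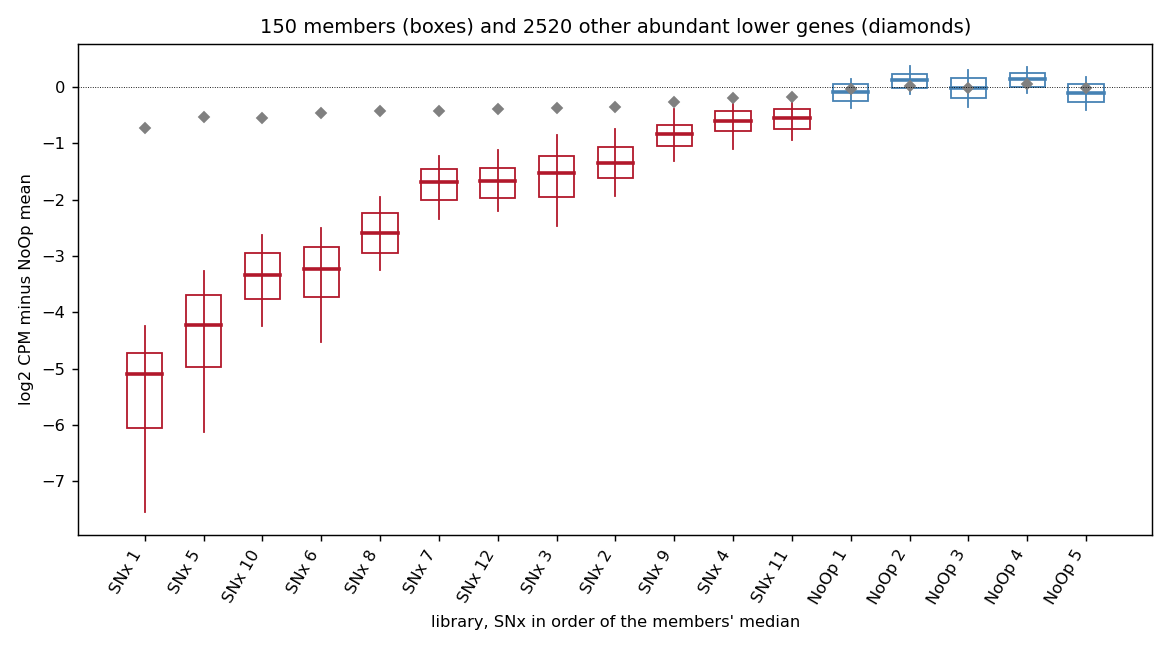
Difference from the NoOp mean (log2 CPM, vertical axis) in each of the 17 libraries, with the SNx libraries (red) in order of their median and the NoOp libraries (blue) to the right. The thick bar is the median of the 150 members, the box the middle quartiles and the line the 10th to 90th percentile, while grey diamonds are the median of the 2520 other abundant genes with a lower SNx mean. The boxes climb from a median of -5.09 in SNx 1 to -0.54 in SNx 11, and the diamonds stay between -0.73 and -0.18.

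As a share of all reads, the members took between 7.74% and 9.15% of the counts in NoOp libraries and between 0.269% and 6.26% in SNx libraries. The smallest share was in SNx 1. Among the 100 genes of highest NoOp mean, 20 were members. Depth moved in part with the order: total counts were 19210434 in SNx 1 and 22197299 in SNx 5, 28452364 in SNx 4 and 30784070 in SNx 9, but 21865713 in SNx 11. With every library thinned at random to the smallest total, an alternative added after the data were seen, the median of SNx 1 was -5.08 and 149 of the 150 genes were chosen again. Random thinning leaves the expected CPM of a gene unchanged, so little movement was possible. Why depth moved in part with the order was not tested. Both ranges of library numbers held the spread. SNx 1, 2, 3, 4, 5 and 6 are of the lower range, with a median SD of 1.80 log2 CPM over the 6, and SNx 7 to 12 are of the higher range, with 1.06, against 0.231 over NoOp. All 150 members had a larger SD than in NoOp within each range taken alone. The members were chosen by their SD over these same SNx libraries, and all NoOp libraries are of the lower range. Nothing is therefore read from this count about the ranges.

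**Figure D2:**
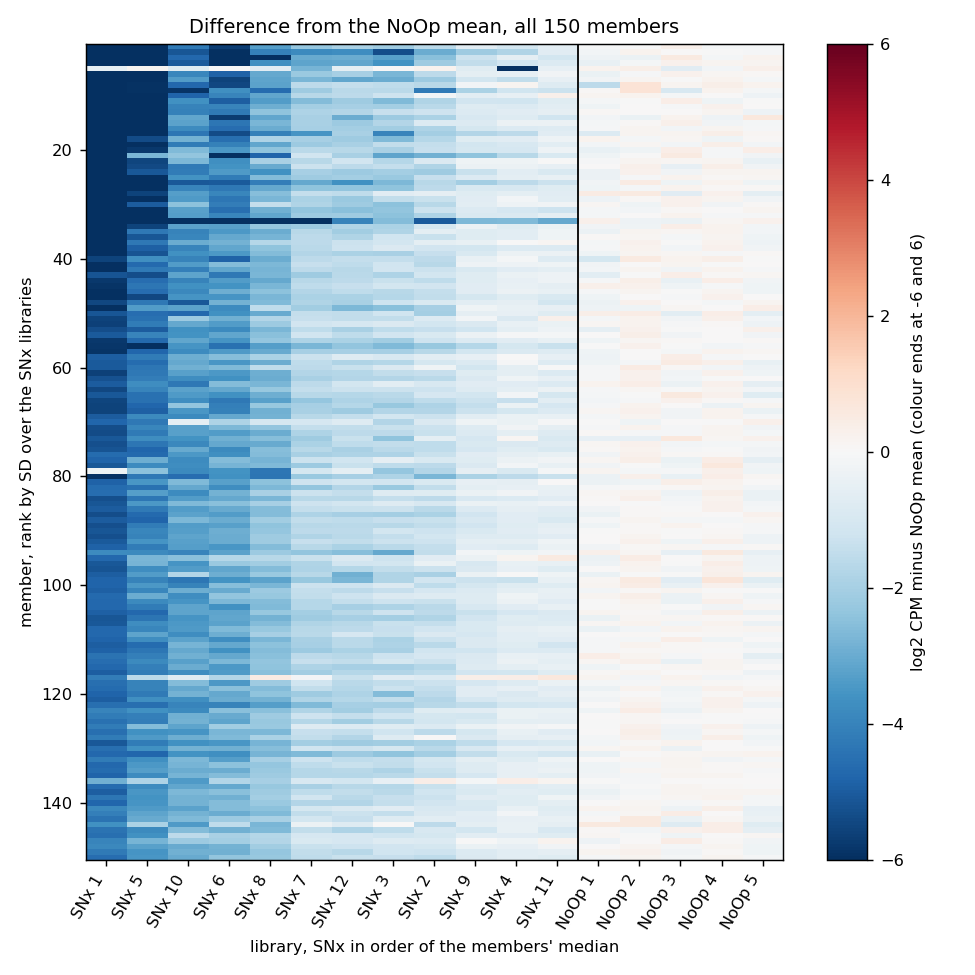
Each row is 1 of the 150 members, ranked from 1 at the top by SD over the SNx libraries, and each column is a library in the same order as before, with NoOp right of the black line. Colour gives log2 CPM minus the member's NoOp mean, blue for lower and red for higher, and darkens towards SNx 1 in nearly all rows. A few rows break the pattern, among them the fifth, LOC100361457, which is pale everywhere except in SNx 4 and SNx 7.

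The first principal component of the members over the 12 SNx libraries held 91.7% of their variance and the second 2.58%. Over the 2520 other genes that met the abundance and direction limits, the first held 77.4%. All but 1 member loaded on the first component with the same sign. Across the 11175 pairs of members the median Pearson correlation over the SNx libraries was 0.957, and 81.2% of pairs were above 0.9. The same median was 0.421 for the other genes. The members were chosen by a large SD over SNx, and noise is a larger part of a small SD and lowers correlations. Neither this gap nor that in the first component can therefore show that the shared course is particular to the members. A set of 300 genes chosen by the same rule, which holds all the members, had a median of 0.942. Its first component held 90.2%. These correlations are over 12 libraries that share their scaling and the order given above, so they describe these libraries only. Without SNx 1 and SNx 5, the libraries farthest out, the median over pairs was 0.932.

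The median SD of a member was 1.50 log2 CPM over SNx and 0.231 over NoOp. For the other genes the values were 0.238 and 0.122. Among the members, SNx SDs lay between 1.21 and 3.66, their NoOp SDs between 0.03 and 0.92, and in all 150 the SNx value was the larger, as it was in 2230 of the 2520 others (88.5%). Just inside the limit stood ENSRNOG00000007829, Aspa, Dhtkd1 and Cbs, with SDs of 1.23, 1.22, 1.21 and 1.21. Just outside were Cryl1, Slco4c1, Akr7a2 and Slc34a3, with 1.21, 1.21, 1.21 and 1.20, so the limit of 150 cuts a continuous run of genes.

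**Figure D3:**
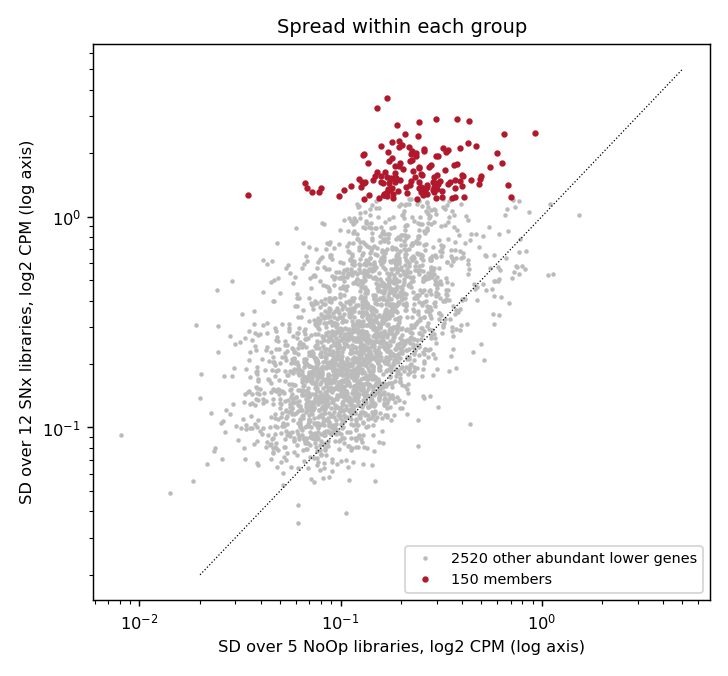
SD over the 12 SNx libraries (vertical) against SD over the 5 NoOp libraries (horizontal), both in log2 CPM on log axes, for the 150 members (red) and the 2520 other abundant genes with a lower SNx mean (grey). The members fill the band from 1.21 upwards because they were chosen that way, all lie above the dotted line of equal spread, and their NoOp SDs overlap those of the grey points.

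The members' mean differences between SNx and NoOp ran from -5.08 (Cyp1a1) to -0.78 (ENSRNOG00000007456), with a median of -2.28 log2. The other genes had a median of -0.39. In edgeR's quasi-likelihood test with Benjamini-Hochberg adjustment over all 15438 genes, 134 of the 150 members were called lower at an FDR of 0.05, beside 27.7% of all genes tested. All 12 SNx libraries were below all 5 NoOp libraries for 97 members, beside 9.6% of all genes tested. The rule used this contrast, so nothing is read from either count. Over all genes the test called 4277 lower and 4672 higher. Scaling by total count alone gave 2403 lower and 7044 higher, since it moves the median difference of all genes from 0.01 to 0.22 log2, and the SNx mean of every member was lower under both. The 16 members without a call included the one with the largest SD, ENSRNOG00000005858, although its groups did not overlap.

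That gene had the most uneven values of all. Its log2 CPM were 10.73, 10.81, 11.11, 10.72 and 10.70 in NoOp, while its lowest, median and highest SNx values were -0.59 in SNx 5, 8.58 and 10.20 in SNx 11. SNx 5 and SNx 1 had 14 and 24 counts where the NoOp libraries had 47604 to 72913. No symbol was given for it in the tables used. The 4 next members without a symbol, ENSRNOG00000024903, ENSRNOG00000050243, ENSRNOG00000029128 and ENSRNOG00000053244, had SDs of 2.90, 2.80, 2.50 and 2.47 and were lowest in SNx 1 and highest in SNx 11 or SNx 4. Cacng5, named as an auxiliary subunit of a voltage-gated calcium channel, was the most uneven gene with a symbol. It measured 7.17, 7.59, 7.37, 7.34 and 7.30 log2 CPM in NoOp, and 0 and 1 counts in SNx 5 and SNx 1. Against a floor of 3 counts it was at least 1300-fold lower in SNx 5 than the NoOp mean. Its highest SNx value was 6.69 in SNx 11, below every NoOp library.

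For 28 members the lowest SNx library kept under 1% of the NoOp level, for 135 under 5% and for all 150 under 10%. In the highest SNx library 64 members were above 75% of the NoOp level and 6 stayed under 50%. Only 4 members had a SNx library above the highest NoOp library, all without a symbol, and by at most 0.46 log2 (ENSRNOG00000007456 in SNx 11). Where gene groups are compared below, the lists were drawn up with earlier results of these data known. They hold 79 of the 104 members with a symbol. Only genes with a symbol could be matched to a list. Those were 604 of the 2670 eligible genes, and 1899 of the 15288 non-members tested had a symbol. How the source of the symbols was selected is not known here, so counts called within a list are not a rate for its pathway. Over all 15438 genes tested, 27.7% were called lower and 4672 genes were called higher.

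Of the gene groups, transporters for drugs and organic ions had the lowest median in SNx 1. Of 19 genes of that list tested, 13 were called lower and 1 higher, and 7 were members. Their median level was 0.739% of NoOp in SNx 1 and 1.60% in SNx 5, and 59.5% in SNx 11. Slco1a1, an organic anion transporting polypeptide of the apical membrane, had 7.58, 7.51, 8.42, 7.77 and 8.10 log2 CPM in NoOp and a lowest, median and highest SNx value of -1.14, 4.71 and 7.28. The lowest was in SNx 5, the highest in SNx 4, and no SNx library reached the NoOp range. Its relative Slco1a6 had 8.69, 9.06, 8.91, 9.15 and 8.78 in NoOp and -0.25, 5.87 and 8.45 over SNx, again without overlap. Reads of such close relatives may be shared between them by transcript quantification, and their separate values are uncertain to that extent. Slc22a2, which takes organic cations up from blood, had 9.01 to 9.44 in NoOp and 2.16, 6.83 and 8.49 over SNx. Slc22a25, of the organic anion transporter family, had 6.18 to 6.65 in NoOp and -0.85, 4.66 and 5.97 over SNx. Slc22a8, which takes up organic anions from blood, kept more at its low end, 3.18% in SNx 1, and its highest library was SNx 3 at 63.6%.

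The list of carriers for sugars, phosphate, sulfate, carboxylates and vitamins had 29 genes tested, 27 called lower and 2 called higher, and 7 members with a median SD of 1.54. Slc34a1, the sodium phosphate cotransporter that reclaims most filtered phosphate, had 12.27, 12.39, 12.12, 12.22 and 11.85 log2 CPM in NoOp. Its lowest, median and highest SNx values were 6.58, 11.03 and 11.76, so that 2.08% was kept in SNx 1 and 75.2% in SNx 11. Slc5a8, a sodium-coupled monocarboxylate carrier, kept 0.962% in SNx 1 and 85.0% in SNx 11, where 6.04 log2 CPM lay inside its NoOp range of 5.94 to 6.48. Slc13a2, which reclaims citrate, had 6.71 to 7.39 in NoOp and 1.56, 5.08 and 6.29 over SNx. Slc16a4, of the monocarboxylate transporter family, had 6.68 to 7.12 in NoOp and 1.33, 4.76 and 6.23 over SNx.

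All 13 amino acid and peptide transporters tested were called lower, and 4 were members. Slc3a1, the heavy chain of the cystine and dibasic amino acid carrier, had 11.67, 11.86, 12.04, 11.94 and 11.85 log2 CPM in NoOp and 7.25, 10.04 and 11.22 as lowest, median and highest over SNx. It was among the 5 members with symbols closest to the mean of the other members. Slc38a3, a glutamine carrier of the basolateral membrane, reached 99.4% of the NoOp level in SNx 11 and 3.08% in SNx 1. Slc6a13, a carrier for GABA and taurine, had its highest SNx value of 5.42 in SNx 11, below its NoOp range of 5.93 to 6.65. At the brush border, where 29 of 35 genes tested were called lower and 2 higher, the 5 members included Anpep (aminopeptidase N), Alpl (tissue-nonspecific alkaline phosphatase), Xpnpep2 (an aminopeptidase that removes residues before proline) and the scaffold Pdzd3. Anpep measured 10.51, 10.65, 10.65, 10.57 and 10.52 in NoOp and 5.71, 8.52 and 9.78 over SNx. Alpl was at 49.5% of its NoOp level in its highest SNx library.

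Amino acid breakdown and conversion gave the largest group, 23 of the 80 genes tested, of which 79 were called lower and 1 higher. Of the 80, 72 met the abundance and direction limits of the rule, so the counts called are no result about the pathway. Upb1, the last enzyme of pyrimidine base breakdown, had 7.33, 7.56, 7.21, 7.56 and 7.30 log2 CPM in NoOp and -0.25, 5.32 and 6.61 over SNx. Acmsd, which steers tryptophan breakdown away from NAD synthesis, had 6.70, 6.998, 6.22, 7.03 and 6.50 in NoOp and 0.11, 5.01 and 6.34 over SNx, so its highest libraries overlapped NoOp. Etnppl, an ethanolamine phosphate lyase, was lowest in SNx 5 rather than SNx 1, at 0.803% of NoOp. Hgd, which opens the ring of homogentisate in tyrosine breakdown, stood nearest to the members' common course. It had 8.39, 8.60, 8.68, 8.49 and 8.51 in NoOp and 3.65, 7.02 and 8.08 over SNx. Bhmt2, a methyltransferase that remakes methionine, followed it closely, with 3.79, 7.41 and 8.46 over SNx against 8.82 to 9.26 in NoOp.

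Glucose production and the handling of fructose and inositol supplied 11 members, and all 26 genes tested on that list were called lower. Pck1, whose product commits carbon to gluconeogenesis, had 12.31, 13.00, 12.26, 12.71 and 12.25 log2 CPM in NoOp. Over SNx it had 4.84, 9.16 and 11.22, so that even SNx 11 held 41.1% of the NoOp level and SNx 1 held 0.494%. Miox, the first enzyme of inositol breakdown, measured 10.30, 10.57, 10.31, 10.79 and 10.31 in NoOp and 3.27, 8.39 and 9.81 over SNx. G6pc, which releases free glucose, had 3.85, 7.46 and 8.80 over SNx against 8.98 to 9.59 in NoOp. Rgn, a lactonase also called regucalcin, kept 0.695% in SNx 1 and 59.3% in SNx 4. Gba3, a cytosolic glucosidase, kept 1.31% and 83.5% at its extremes.

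Of the list for fatty acid, ketone and peroxisome metabolism, 53 of 55 genes tested were called lower and 1 higher, and 6 were members. The median SD of its eligible genes was 0.690, beside 0.961 for amino acid metabolism and 1.38 for the organic ion transporters. Amacr, a racemase for branched-chain fatty acids, kept between 2.50% and 79.7%. Pm20d1, which couples fatty acids to amino acids, had 3.41, 6.79 and 7.88 log2 CPM over SNx against 8.38 to 8.77 in NoOp. Acsm1, a medium-chain acyl-CoA synthetase, had 5.63, 8.77 and 10.005 against 9.96 to 10.64.

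Enzymes of drug, glutathione and steroid metabolism had 10 members, with 31 of 41 genes tested called lower and 5 higher. Hnmt, which inactivates histamine, had 6.91, 7.004, 7.42, 6.77 and 6.98 log2 CPM in NoOp and -1.91, 4.40 and 6.28 over SNx. Its lowest library, SNx 1, had 4 counts. Cyp2e1, a cytochrome that oxidises small molecules such as ethanol, ranged from 6.68 to 7.90 in NoOp and from 1.19 to 6.82 over SNx, so it overlapped. Fmo1, a flavin monooxygenase, kept 2.58% in SNx 1 and 62.2% in SNx 11.

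Among hormone-related and secreted products, 12 of 20 genes tested were called lower and 5 higher, and 5 were members. Dio1, which converts thyroxine to its active form, had 7.70, 7.93, 8.08, 7.86 and 7.92 log2 CPM in NoOp and 1.87, 6.30 and 7.66 over SNx. Iyd, which recovers iodide from iodotyrosines, was one of the 5 closest to the other members, with 0.96, 4.85 and 6.09 over SNx against 6.60 to 7.07 in NoOp. Apom, an apolipoprotein, and Prlr, the prolactin receptor, kept 3.14% and 3.56% in SNx 1. Tff3, a secreted trefoil peptide, belongs to none of the lists and had one of the 6 largest falls with a symbol, -3.62. The list for the thick limb, distal tubule and collecting duct had 7 of 12 genes tested called lower, 5 called higher and 1 member, Kcnj15, a potassium channel. Bulk tissue does not show in which segment Kcnj15 was expressed. Of 11 transcription factors of the proximal tubule tested, 7 were called lower and 2 higher, and none was a member. Only 4 of the 11 met the abundance and direction limits of the rule, so the lack of members is no result about them.

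**Figure D4:**
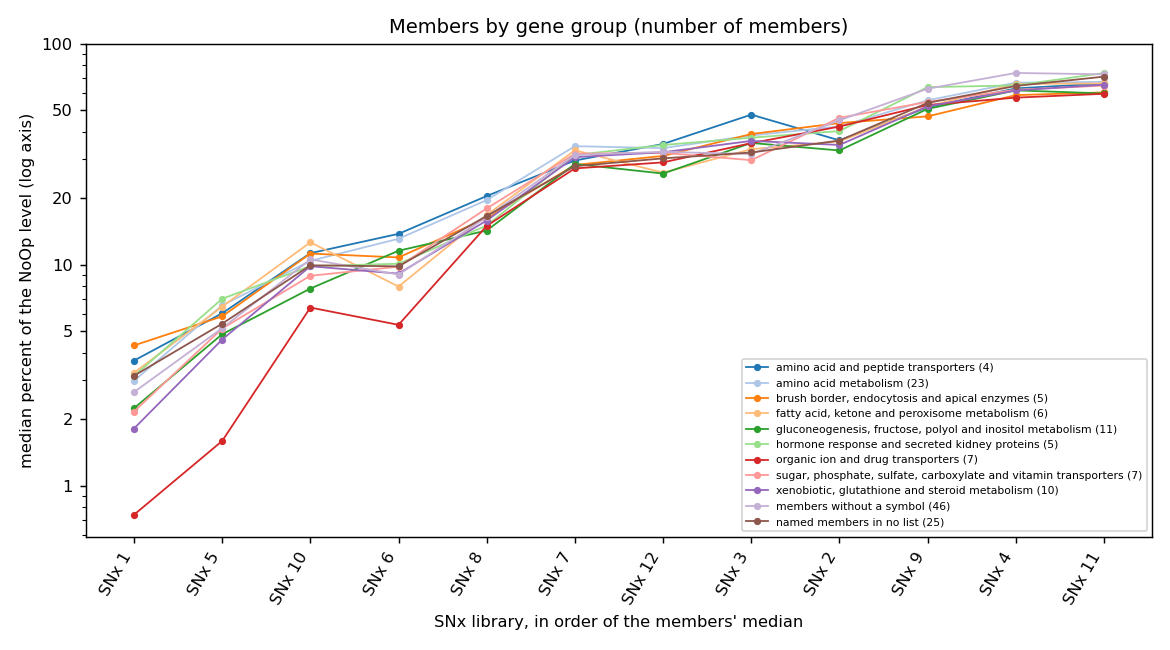
Median percent of the NoOp level (log axis) in each SNx library for the members of each gene group with more than 1 member, with the number of members in brackets and the libraries in the same order. The lines run together from 27.3% to 34.5% in SNx 7, and they spread in SNx 1, where organic ion and drug transporters are at 0.739% and brush border genes at 4.32%.

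By group, the order of libraries was nearly the same everywhere. Spearman's rho between a group's medians and those of all members lay between 0.979 and 1 over the 12 libraries for each group with more than 1 member, those without a symbol included. SNx 1 was the lowest library in each of them. The members did differ in how steeply they followed. The slope of a member on the mean of the other members had a median of 0.92, ran from -0.67 (LOC100361457) to 2.22 (ENSRNOG00000005858) and was above 1.5 for 8 members. Members with a symbol lay on 21 chromosomes, with 20 of the 104 on chromosome 1.

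Exceptions were few. With the mean of the other members, 139 of the 150 correlated at 0.9 or more over the 12 SNx libraries and 5 under 0.8. LOC100361457, described as similar to gamma actin 1, was the one opposite member, at -0.38. Its log2 CPM were 6.41, 6.58, 5.53, 6.03 and 6.51 in NoOp, and its lowest, median and highest over SNx were -3.75, 5.66 and 6.43. The low value was SNx 4, one of the best-kept libraries, where the table gives 0 counts against 1523 to 2754 in NoOp, at least 714-fold lower on a floor of 3 counts. SNx 7 followed with 296 counts. Without SNx 4 its SD was 0.834 and it was not chosen, so its place rests on that library. Actin genes and their processed copies are nearly identical in sequence, and how transcript quantification divided their reads is not known here.

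Cyp1a1, a cytochrome that is switched on by aromatic pollutants, had the largest mean fall and a course of its own (r = 0.70). It measured 6.74, 6.12, 6.10, 6.55 and 6.67 log2 CPM in NoOp and -1.10, 0.86 and 3.82 over SNx. SNx 7 and SNx 2, which kept 31.1% and 39.3% of the members' level, had only 18 and 66 counts of Cyp1a1, while SNx 3 had 439. The highest library, SNx 3, held 16.3% of the NoOp level, the smallest such maximum among the named members. Acsm3, an acyl-CoA synthetase next in function to Acsm1, followed another course (r = 0.73). It had 8.29, 8.51, 9.09, 8.45 and 8.32 in NoOp and 0.60, 5.96 and 7.64 over SNx, but SNx 5 lay 2.59 log2 above the line on the other members and SNx 6 lay 2.05 below it. Leaving out SNx 5 raised its r to 0.845.

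Slc6a19, the main carrier for neutral amino acids, had the fifth lowest correlation, 0.79. Its NoOp values fell apart, at 7.34, 7.35, 5.98, 7.17 and 6.03, and the SNx values of 3.16, 5.63 and 6.80 overlapped them, with SNx 3 highest. ENSRNOG00000058105, outside the naming rule and picked out after its values were seen, had r = 0.32. It measured 7.38 to 7.92 in NoOp, 3.31 in SNx 8, its lowest, and 7.51 in SNx 11. In SNx 1 it was 2.54 log2 above the line that the other members set, and its r was 0.870 without SNx 1 and SNx 5. The next named exceptions, G6pc, Gldc, Cacng5, Cndp1, Slc22a8 and the uncharacterized LOC103691699, all correlated at 0.94. Cndp1, a carnosine dipeptidase, had its highest SNx value of 7.47 in SNx 4, within its NoOp range of 6.82 to 7.96. Gldc, part of the glycine cleavage system, kept 6.37% in SNx 1.

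**Figure D5:**
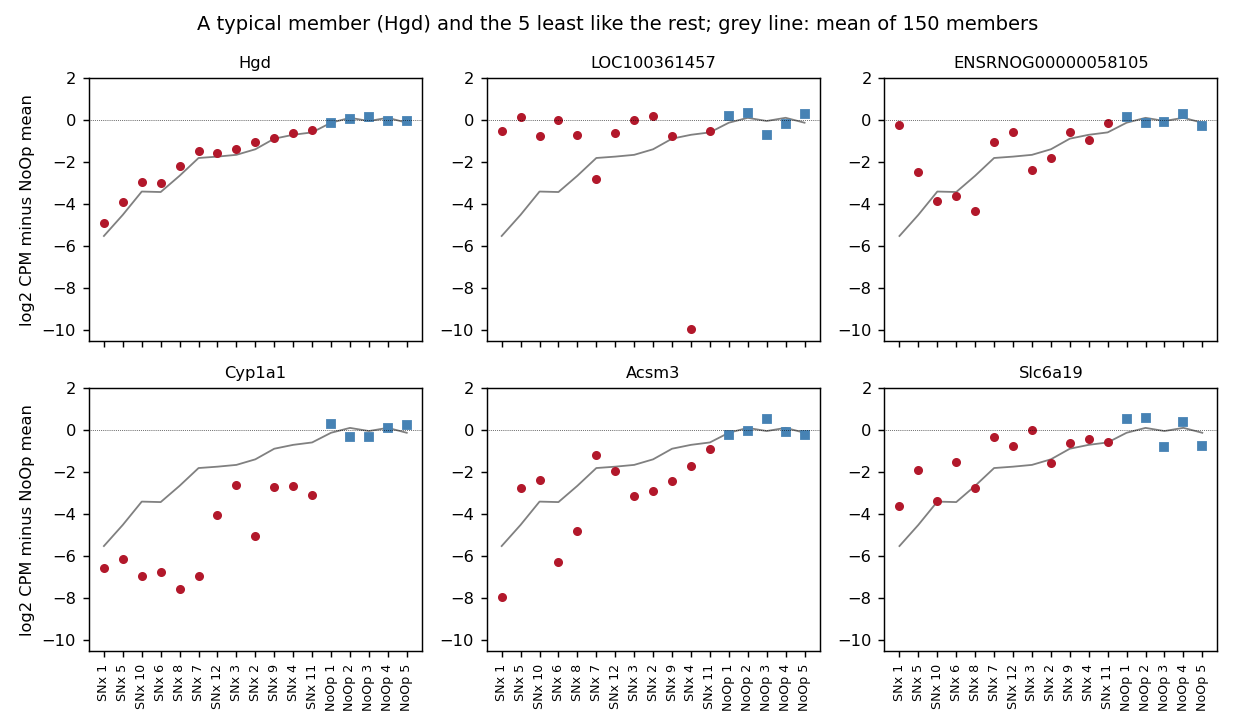
Difference from the NoOp mean (log2 CPM) over the 12 SNx libraries (red circles) and 5 NoOp libraries (blue squares) for Hgd, which follows the others closely, and for the 5 members with the lowest correlation with the rest. The grey line is the mean of all 150 members, and the points leave it in SNx 4 for LOC100361457, in SNx 1 for ENSRNOG00000058105, in SNx 7 for Cyp1a1, in SNx 5 for Acsm3 and in SNx 3 for Slc6a19.

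Outside the set, 1213 of the 15288 other genes tested correlated with the mean of the members above 0.9 over the 12 SNx libraries and 610 below -0.9. Those most like it with a symbol were Gk (glycerol kinase), Aqp1 (the water channel of proximal tubule and thin limb), Aldh6a1 (valine breakdown) and Slc2a5 (a fructose carrier), with r between 0.992 and 0.995. Aqp1 had an SD of 1.06 and so missed the set by its smaller spread. Hgd, Iyd, Bhmt2, Slc3a1 and Fmo1 were the closest members.

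Markers of the tissue were checked beside the order. None of the markers tested had 0 counts in every library. Of the 9 proximal tubule markers tested, 5 are members, and their summed CPM was 19815 to 24334 in NoOp and 1553 (SNx 1) to 15123 (SNx 11) over SNx. The 4 others, Lrp2, Cubn, Pdzk1 and Aqp1, correlated with the members' mean at 0.97, 0.78, 0.97 and 0.99. Of 13 markers listed for thick limb, distal tubule and collecting duct, only 6 could be matched. Umod, Slc12a1 and Aqp2 were among those left out. The 6 summed to 1062 to 1120 in NoOp and 377 to 957 over SNx, lowest again in SNx 1. Not all 6 went down: mean log2 CPM of Trpv5 was 3.95 in NoOp and 5.35 in SNx, and of Cldn19 5.33 and 6.28. Of 6 podocyte markers listed, the 1 tested (Ptpro) had 77.2 to 108 CPM in NoOp and 25.01 to 57.1 over SNx.

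Summed markers of injured tubule, fibroblast and smooth muscle, macrophage, and T and B cells were higher in every SNx library than in any NoOp library. The 11 tested for injured or dedifferentiated tubule summed to 935 to 1303 CPM in NoOp and 3886 to 18654 over SNx, with the lowest sum in SNx 11 and the highest in SNx 5. In SNx most of that sum is Spp1, with a mean of 8.31 log2 CPM in NoOp and 12.61 in SNx, while the mean of Upk2 was 0.56 in NoOp and -0.45 in SNx. Krt5, Upk2 and Upk3a of that list are not specific to tubule. They correlated with the members' mean at -0.25, 0.10 and -0.02, and the rest of the list at -0.95 (Vim) to -0.52 (Krt8). Of 9 listed for fibroblast and smooth muscle, 6 were tested. They summed to 323 to 393 in NoOp and 911 to 9309 over SNx, with SNx 1 at 9309 and the next library at 2166. In SNx most of that sum is Col1a1 and Col3a1, with means of 6.55 and 7.15 log2 CPM in NoOp and 9.72 and 9.71 in SNx. Mean log2 CPM of Cnn1 was 2.23 in NoOp and 2.58 in SNx, and its values overlapped. Tagln in SNx 8 was 5.98, below its NoOp range of 6.02 to 6.68. Macrophage markers (9) ran from 94.0 to 139.7 in NoOp and from 218 to 658 over SNx, highest in SNx 1, and the 7 of T and B cells from 23.3 to 36.8 and from 80.2 to 157. Adgre1 of the macrophage list overlapped: SNx 6 and SNx 8 had 3.20 and 3.29 log2 CPM, inside its NoOp range of 2.71 to 3.79. Cd4 had the highest mean of the T and B cell list, 4.40 log2 CPM in NoOp and 5.95 in SNx. That list ran opposite ways with the members' mean, with correlations from -0.65 (Pax5) to 0.65 (Cd2). Markers of red cells were not matched. The part of these cell types and of RNA quality in the members' order was not tested.

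Promoters of members were read to see what they share in sequence. RefSeq's table for the GRCr8 build, which is not the build of the counts, gives 250 bases before and 50 after each gene's start, and 77 of the 104 members with a symbol matched an entry. Of the motifs searched on both strands, those given here are TATAAA (the TATA box) and CAAAGTCCA (of the type bound by HNF4 factors). TATAAA was in 11 of the 77 windows (14.3%) and in 14.2% of all 33469 windows. CAAAGTCCA was in 4 (5.19%) against 0.391% of all. A member was matched only where its symbol had a single window. The set of all windows had no such limit and was not restricted to genes abundant in kidney, so the shares come from unlike sets. These shares are a description, and a match is not evidence of binding. The 250 bases before the start are shown for the 4 members of largest SD whose stretch holds either motif, since they let the values of Tff3, Miox, Cyp2e1 and Aspdh be set beside their sequence. Capitals mark the motif, TATAAA in the first 3 and CAAAGTCCA in Aspdh, and no matches overlap in the stretches shown. The stretches are chr20:9199334-9199583 (minus strand), chr7:122284410-122284659 (plus), chr1:205269717-205269966 (plus) and chr1:104094733-104094982 (plus), in that order.
Tff3: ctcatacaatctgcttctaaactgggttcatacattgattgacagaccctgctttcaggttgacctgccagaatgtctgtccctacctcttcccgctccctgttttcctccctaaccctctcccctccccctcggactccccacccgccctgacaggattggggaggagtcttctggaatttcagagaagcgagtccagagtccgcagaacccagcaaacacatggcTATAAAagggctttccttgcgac
Miox: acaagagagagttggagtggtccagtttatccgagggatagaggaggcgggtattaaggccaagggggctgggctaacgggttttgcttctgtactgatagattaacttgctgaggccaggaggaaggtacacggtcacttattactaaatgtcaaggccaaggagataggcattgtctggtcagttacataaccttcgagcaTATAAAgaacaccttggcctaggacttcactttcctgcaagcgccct
Cyp2e1: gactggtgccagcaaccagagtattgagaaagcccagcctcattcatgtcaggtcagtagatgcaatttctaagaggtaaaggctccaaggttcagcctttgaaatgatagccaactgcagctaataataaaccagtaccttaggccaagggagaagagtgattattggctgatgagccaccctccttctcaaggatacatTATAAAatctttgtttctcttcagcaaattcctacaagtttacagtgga
Aspdh: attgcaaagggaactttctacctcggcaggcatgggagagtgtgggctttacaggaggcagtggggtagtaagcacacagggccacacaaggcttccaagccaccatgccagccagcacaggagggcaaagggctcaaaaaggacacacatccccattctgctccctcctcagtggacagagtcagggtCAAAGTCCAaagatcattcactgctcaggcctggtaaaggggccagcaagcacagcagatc
The motif begins 23 bases before the start in Tff3, 47 in Miox, 49 in Cyp2e1 and 61 in Aspdh. Aspdh, an aspartate dehydrogenase-like gene, kept 1.56% of its NoOp level in SNx 1 and 60.4% in SNx 4, close to Tff3 (0.455% and 63.4%) and Cyp2e1 (1.38% and 68.5%) at the upper end.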

How the data were processed

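The authors quantified paired-end reads of 12 SNx and 5 NoOp kidney libraries per transcript and summarised them to genes. They deposited estimated counts per gene, and for 13318 genes log2 values that their methods describe as voom-transformed. The submitters' processing notes name Salmon, limma and the rn6 build, and versions are not given in the sources used here. The 34 columns of the whole-series tables were not used. Symbols and chromosomes came from the study's supplementary transcript sheets, whose values were not used.

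Estimated counts were rounded, filtered with filterByExpr, scaled by TMM in edgeR 4.0.16 (R 4.3.3; limma 3.58.1) and turned into log2 CPM with a prior count of 2. The percent kept is 100 times 2 to the power of a library's log2 CPM minus the NoOp mean, which understates losses of genes with few counts. edgeR's quasi-likelihood test compared SNx with NoOp over 15438 genes. DESeq2 1.42.0, limma-voom, other scalings, filters, thresholds, set sizes and library subsets were alternatives, with random thinning of counts added later. Intervals were not computed, and counts of 3 or fewer were read against a floor of 3 counts. Figures used Python 3.11.15 and matplotlib 3.10.9.

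The members and the gene lists were chosen with earlier results of these data known. Genes are named by rule: 12 of largest SD, 6 of largest fall, up to 4 per list, the 5 most and 10 least like the other members, 5 without a symbol and 4 on each side of the limit. Outside the set, the 4 genes most like and the 6 least like the members' mean are named. A few results covered by these rules are not reported here.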

Additional observations from a re-analysis of the deposited data

Results flagged for a closer look

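Among 53 sets of 5 NoOp values of named members, 4 had an extreme library whose gap to its neighbour exceeded 0.71 of the whole range, the critical value of Dixon's test. Chance flags about 1 set in 20, here 2.65. For Tff3, NoOp 1 stood at 7.68 log2 CPM and the others at 8.64 to 8.87, and without NoOp 1 the mean difference was -3.83 in place of -3.62. For Acsm3, NoOp 3 stood at 9.09 and the others at 8.29 to 8.51, and the difference was -3.04 without it and -3.18 with it. For ENSRNOG00000005858, NoOp 3 stood at 11.1 and the others at 10.70 to 10.81, and the difference was -3.73 without it and -3.80 with it. For ENSRNOG00000029128, NoOp 1 stood at 5.62 and the others at 7.38 to 8.04, and the difference was -3.21 without it and -2.82 with it. The cause was not tested in any of them.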

How the results depend on the processing

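Every alternative set of genes was again chosen by a lower SNx mean, so its median difference could not change sign. A share of variance, an SD and a count of calls have no sign to change. Nothing is therefore read from the absence of a reversal, and the ranges below describe how far the values moved. The 17 sets made without 1 library each shared 140 to 149 genes with the 150, fewest without SNx 1, and 128 members were in all 17. Over those sets the first component held 87.9% to 93.1%, the median pairwise correlation was 0.938 to 0.967, the median difference -2.43 to -2.02, the median SD 1.25 to 1.56, and the lowest library's median -5.16 to -4.23, the last without SNx 1, when SNx 5 was lowest. Calls ran from 7914 to 9438 over all genes and from 110 to 141 of the members, fewest without NoOp 4. At an FDR of 0.01 the test called 55 members. A set of 75 shared 75 genes and had a median SD of 1.84, and a set of 300 had 1.21. With the lower range of library numbers alone the median SD of the genes chosen was 1.81, and with the higher range alone it was 1.11, with a lowest median of -3.41 in SNx 10. SNx 1 was the lowest library in 27 of the 29 alternatives. No paired analysis was possible because the labels give no replicate numbers shared between groups. The 5 NoOp libraries limit the precision of every percentage kept.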

Other observations

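Genes with the opposite course were led, among those with a symbol, by Zyx (zyxin), Vasp, Adamtsl4, Dbn1 (drebrin), Map7d1 and Irak3, whose correlations with the mean of the members over the 12 SNx libraries were between -0.988 and -0.976. Zyx, Vasp and Dbn1 encode proteins of the actin cytoskeleton, Map7d1 a microtubule-associated protein, and Irak3 a brake on Toll-like receptor signalling. Zyx measured 6.36 to 6.64 log2 CPM in NoOp and 6.66 to 8.33 over SNx, highest in SNx 1. Adamtsl4, a secreted matrix protein, measured 4.97 to 5.37 in NoOp and 5.80 to 8.30 over SNx. These genes were picked by that correlation, so the values are a description.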
